A study of Sus scrofa domesticus with 2 samples.

Results

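The genes described here encode transcription factors that mark or maintain endothelial cells (ECs). The list held ERG, FLI1, SOX7, SOX17, SOX18, HHEX, TAL1, GATA2, KLF2 and KLF4, and 9 of these 10 were named among the 22804 genes of both count matrices. SOX7 was not among the genes given by symbol, so it has no value here. The matrices came from scRNA-seq of primary pig ECs in culture, with 1 library from the lung and 1 library from the aorta near the lung (*Sus scrofa domesticus*). ECs were released by collagenase from the perfused lung or the sealed aorta and grown in serum-containing medium, and neither library had a named treatment. The methods give 6-month-old slaughterhouse pigs, a cross of Landrace, Large White and Duroc, for tissues that went into scRNA-seq, without saying that the cultures came from them. Neither the labels nor the methods tie these cultures to a numbered animal or a passage, so organ, animal, culture and library cannot be told apart, and no comparison between the organs has a replicate. Intervals given below are 95% counting intervals, which cover counting error only.

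Transcription factors of several families act together to keep the endothelial programme on. The ETS factors ERG and FLI1 bind enhancers of junction and receptor genes, SOXF factors shape arterial and lymphatic vessels, and GATA2 and TAL1 are shared with blood progenitors. KLF2 and KLF4 respond to blood flow and are also used by other cell types, among them smooth muscle cells.

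The lung library held 5946 cells and 57213236 unique molecular identifiers (UMIs, 1 for each captured transcript), and the aorta library held 1185 cells and 46080859 UMIs. The study's limits were applied, which require over 200 but under 5000 detected genes and a mitochondrial share of UMIs below 30%. This left 5683 of the 5946 lung cells but only 246 of the 1185 aorta cells. With the other limits alone, 5709 lung and 955 aorta cells were left, and 709 of these aorta cells had 5000 or more detected genes. Aorta values are therefore given both for cells under that limit and for these deep cells, which carried 43390389 of the aorta UMIs. The upper limit served in the study to remove doublets, although the study kept more aorta cells than this limit leaves here. Whether the deep cells are doublets was not tested, so every value for them is one for cells that the stated limit leaves out. Only 5 cell barcodes were shared by the libraries.

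A cell was called endothelial when its UMIs of PECAM1, an endothelial junction protein, outnumbered those of the collagen genes COL1A1 and COL1A2. It was called collagen-high when the collagen UMIs outnumbered PECAM1 and stood at 1000 or more counts per 1000000 UMIs (CPM) within the cell. In the lung, 5281 cells (92.9%) were endothelial and 343 (6.04%) were collagen-high. In the aorta, 123 cells under the limit were endothelial and 29 collagen-high, against 581 and 128 of the deep cells. The rule was close for few lung cells, since collagen and PECAM1 lay within 1 UMI of each other in 96 of them, but for 110 of the 246 aorta cells under the limit. In deep aorta cells no cell lay that close, but 1 UMI is a narrow margin where each endothelial cell had 10 or more PECAM1 UMIs. Collagen UMIs were present in 486 of the 581 deep aorta endothelial cells and in 1194 of the 5281 lung endothelial cells.

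Markers that the rule did not use fitted the classes in most respects. Of 12 endothelial markers, 9 reached 20 CPM in lung endothelial cells and 10 in deep aorta endothelial cells. VWF, which encodes von Willebrand factor, was at 0.404 CPM in lung and 0.202 CPM in deep aorta endothelial cells, and the VEGF receptor gene KDR was at 1.77 and 0.375 CPM, so these defining markers were near 0. The collagen-high cells carried mural markers, with PDGFRB at 137 CPM in the lung and 126 CPM in deep aorta cells. Of the 10 mural markers, 5 reached 20 CPM in collagen-high cells of each of these sets. Of 7 fibroblast markers, which include COL1A1 and COL1A2 of the rule, 4 did so in each set. The study named the cultured cells with high COL1A1 and COL1A2 fibroblasts. Endothelial cells were not free of mural transcripts, since the 10 mural markers summed to 985 CPM in lung endothelial cells against 3777 CPM in lung collagen-high cells, and to 251 against 3782 CPM in deep aorta cells. Nearly all of this in endothelial cells was TAGLN, at 958 CPM in the lung and 240.2 CPM in deep aorta cells, while PDGFRB was at 0.865 and 2.02 CPM. A UMI of PDGFRB or CSPG4, a second pericyte marker, was present in 317 of 343 lung and 128 of 128 deep aorta collagen-high cells. The 13 leukocyte markers summed to 6.28 CPM in lung endothelial cells, with CD14 the most abundant at 5.02 CPM, and to 4.53 CPM in deep aorta endothelial cells. Markers of epithelial and lymphatic endothelial cells summed to 0.769 and 0.480 CPM in lung endothelial cells.

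The contrast turned on SOX18 and HHEX at one end and on KLF2 and KLF4 at the other, so the 250 bases before the RefSeq start of these genes on Sscrofa11.1 are shown, each 5′ to 3′ on the strand of its gene. SOX18 is read from chr17:62871759-62872008 (minus strand), HHEX from chr14:104194174-104194423 (plus strand), KLF2 from chr2:61273038-61273287 (minus strand) and KLF4 from chr1:248609575-248609824 (minus strand). Capitals mark matches on either strand to the ETS motif CCGGAA, the SOX motif ACAATG, the GATA motif AGATAA, the E-box motif CAGCTG, the KLF motif CCACCC or the TATA box motif TATAAA.
SOX18: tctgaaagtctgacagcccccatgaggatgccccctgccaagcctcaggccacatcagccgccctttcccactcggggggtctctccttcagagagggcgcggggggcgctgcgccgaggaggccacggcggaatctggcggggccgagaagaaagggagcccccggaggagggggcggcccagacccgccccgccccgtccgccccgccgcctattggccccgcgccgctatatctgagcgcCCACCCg
HHEX: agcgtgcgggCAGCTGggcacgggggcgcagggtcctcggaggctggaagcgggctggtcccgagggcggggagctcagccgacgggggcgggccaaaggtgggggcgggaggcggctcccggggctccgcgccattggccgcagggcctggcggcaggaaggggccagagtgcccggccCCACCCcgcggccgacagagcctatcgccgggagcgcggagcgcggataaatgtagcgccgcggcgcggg
KLF2: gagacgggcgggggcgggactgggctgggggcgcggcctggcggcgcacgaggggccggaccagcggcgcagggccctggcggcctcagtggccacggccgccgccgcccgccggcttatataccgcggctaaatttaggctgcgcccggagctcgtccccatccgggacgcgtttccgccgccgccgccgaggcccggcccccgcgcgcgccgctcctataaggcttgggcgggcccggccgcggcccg
KLF4: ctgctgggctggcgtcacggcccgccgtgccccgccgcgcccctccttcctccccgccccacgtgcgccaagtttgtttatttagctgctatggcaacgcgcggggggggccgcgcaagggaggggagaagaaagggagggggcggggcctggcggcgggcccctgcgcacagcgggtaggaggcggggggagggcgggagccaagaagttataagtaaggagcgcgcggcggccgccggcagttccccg
CCACCC lay 7 bases before the start of SOX18 and 70 bases before that of HHEX, and CAGCTG lay 240 bases before that of HHEX. The windows of KLF2 and KLF4 held none of these letters. CCACCC was present in 3 of the 10 genes on the list and in 30.5% of 19534 protein-coding promoters of the same length, so the share on the list was near that of all genes. CCGGAA was present in 1 of 10 and 13.6% of all promoters, AGATAA in 1 of 10 and 8.08%, and CAGCTG in 1 of 10 and 13.6%. ACAATG, present in 7.28% of all promoters, and TATAAA, present in 9.76%, matched none of the 10. No matches of different motifs overlapped. The 4 windows were rich in G and C, at 72.8% for SOX18, 78.4% for HHEX, 80% for KLF2 and 73.2% for KLF4, where the median promoter had 57.6%.

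All 9 genes had UMIs in lung endothelial cells, but their levels were spread over a wide range. UMIs were counted at the 3′ end of a transcript, so CPM does not grow with gene length, though levels of different genes also depend on how well the 3′ end is annotated. In lung endothelial cells the order by CPM was ERG, HHEX, SOX18, GATA2, FLI1, KLF4, KLF2, SOX17 and TAL1. GATA2 and FLI1 were the only neighbours in that order whose counting intervals overlapped. In deep aorta endothelial cells the order was the same, and only HHEX and SOX18 could not be told apart by counting error. In aorta endothelial cells under the limit ERG was again the most abundant, but the intervals of neighbours from HHEX down to KLF2 all overlapped at that depth.

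**Figure D1:**
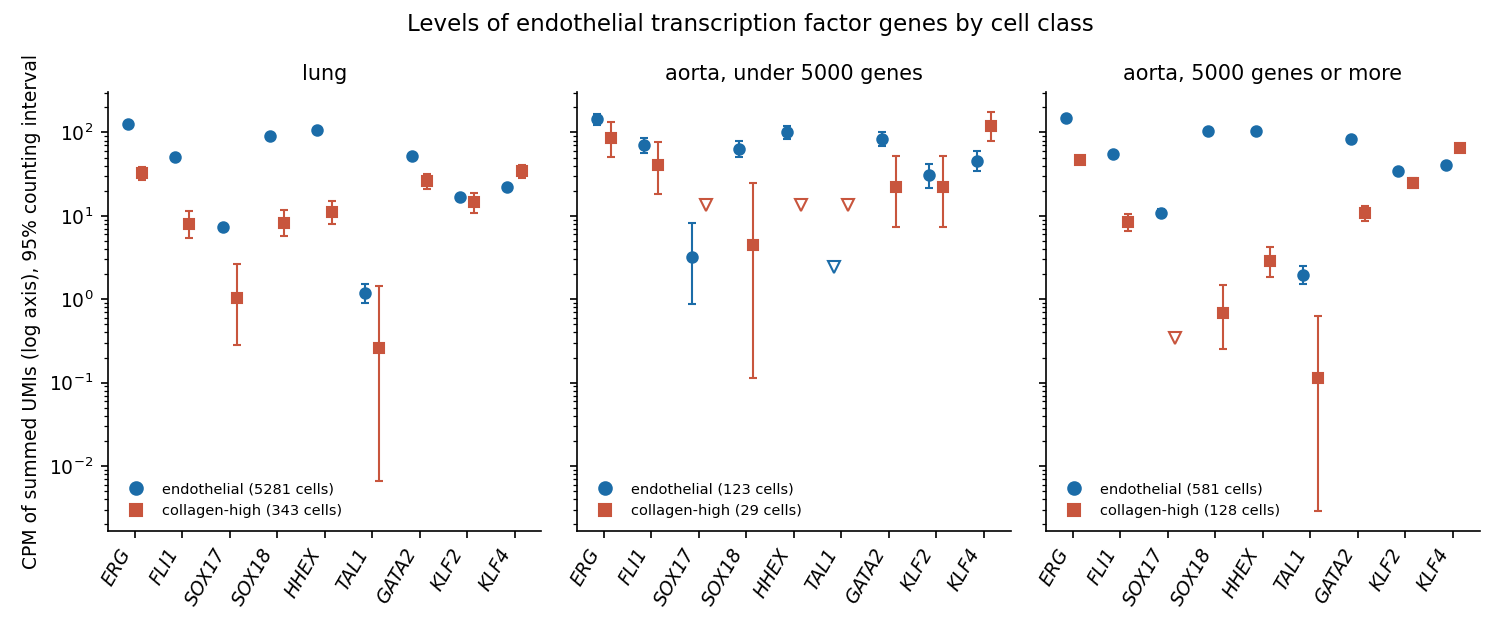
Levels of the 9 genes (CPM of summed UMIs, log axis) in endothelial cells (blue circles) and collagen-high cells (red squares) of the lung, of aorta cells under 5000 detected genes and of aorta cells with 5000 or more. Bars are 95% Poisson intervals and open triangles are the limit of 3 counts where no UMI was seen. ERG, FLI1, SOX18, HHEX and GATA2 lie higher in endothelial cells of all 3 sets, and KLF4 lies lower.

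In the lung, 6 of the 9 genes reached 20 CPM in at least 1 class, and 5 of these were 2-fold or more higher in endothelial than in collagen-high cells (ERG, FLI1, SOX18, HHEX and GATA2). Of all 6059 genes tested in this way 9.67% were higher by that much and 6.62% were lower. The median ratio of the 6 genes was 5.16, beside 1.01 over all genes tested. The lung call for GATA2 was lost, leaving 4 genes, with no upper limit on genes and under a stricter endothelial rule of at least 2 PECAM1 UMIs and no collagen UMI. In aorta cells under the limit, 3 of 7 genes were higher by 2-fold or more (SOX18, HHEX and GATA2) and KLF4 was lower, with a background of 16.2% higher and 13.3% lower. Over the alternatives the number higher ranged from 1 to 5. With cells thinned to 3000 UMIs ERG alone passed, and SOX18, HHEX and GATA2, seen in 10, 27 and 18 of 99 endothelial cells, had no UMI in the 16 collagen-high cells, so their ratios were limited by the floor of 3 counts. The median ratio of these 7 genes was 1.74, beside 0.963 over all genes. In deep aorta cells, 5 of 7 genes were higher, the same 5 as in the lung, and none was lower, with a background of 12.5% higher and 7.64% lower. Their median ratio was 6.46, beside 0.982 over all genes. Since KLF2, SOX17 and TAL1 in the lung, and SOX17 and TAL1 in the aorta, stayed under 20 CPM in both classes, they are outside these counts. Here and in the lists below, genes that reached 20 CPM in endothelial cells alone had to lie higher there, so the counts and medians are a description. Among the members these were SOX18 and HHEX in each set, FLI1 in the lung and deep aorta and GATA2 in the deep aorta.

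**Figure D2:**
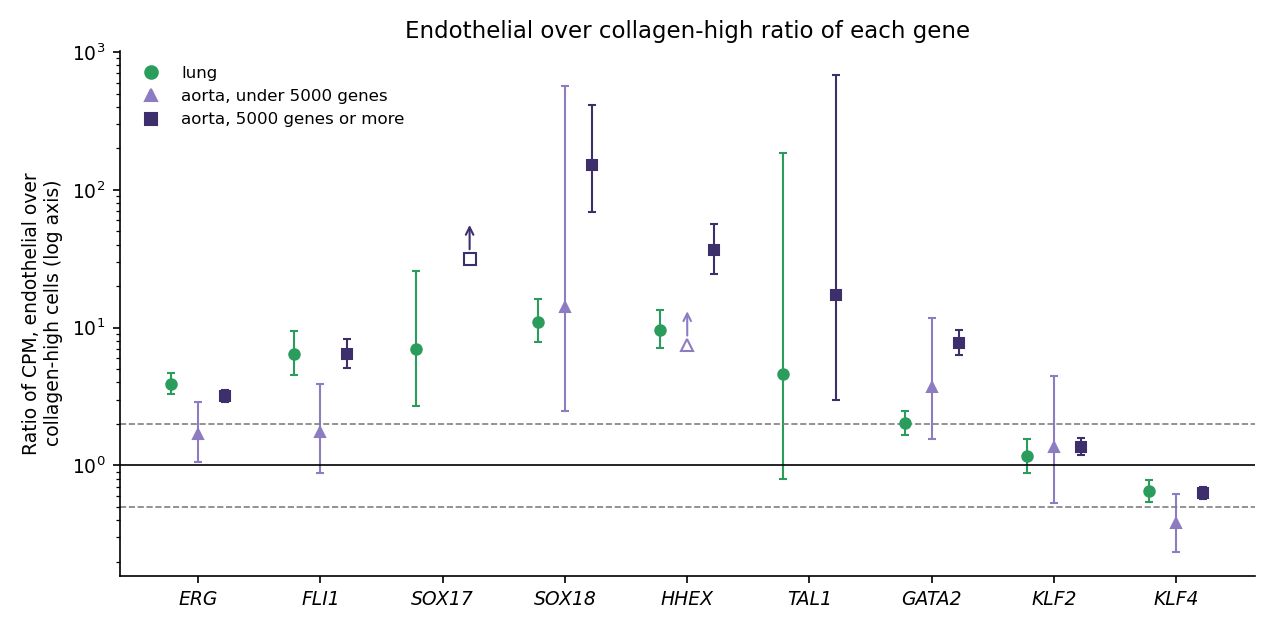
Ratio of CPM in endothelial over collagen-high cells for each gene (log axis) in the lung (green circles), in aorta cells under 5000 detected genes (light triangles) and in deep aorta cells (dark squares). Bars are 95% counting intervals, open symbols with an arrow are lower bounds, and dashed lines mark 2-fold each way. SOX18 and HHEX lie highest among the genes at 20 CPM or more, and KLF4 lies below 1 in every set.

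Of the ETS factors, ERG (ENSSSCG00000022318, chr13:201999237-202302572, minus strand), a regulator of endothelial junctions, was the most abundant of the 9 genes. Its level was 127 CPM (124 to 131) in lung endothelial cells, 144 CPM (124 to 167) in aorta endothelial cells under the limit and 150 CPM (146 to 154) in deep aorta endothelial cells. In collagen-high cells it was at 32.6, 85.3 and 46.9 CPM in the same order. ERG was thus 3.91-fold (3.28 to 4.70) higher in lung endothelial cells and 3.20-fold (2.89 to 3.54) higher in deep aorta endothelial cells, but only 1.69-fold (1.05 to 2.88) higher under the limit. In the lung 66.6% of endothelial cells and 23.3% of collagen-high cells carried an ERG UMI, at median depths of 9416 and 10676 UMIs. With 3000 UMIs drawn at random from every cell, leaving out 159 and 13 shallower cells, the shares were 31.4% and 6.97%. ERG UMIs were therefore also seen in collagen-high cells of every set, and the part of free RNA or of doublets in them was not tested.

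FLI1 (ENSSSCG00000015237, chr9:55612905-55749784, plus strand), the close relative of ERG, was at 51.4 CPM in lung, 70.2 CPM in aorta under the limit and 54.7 CPM in deep aorta endothelial cells. In collagen-high cells it was at 8.02, 40.4 and 8.47 CPM. The ratio was 6.41 (4.50 to 9.45) in the lung, with a range of 5.76 to 14.1 over the alternatives, and 6.46 (5.12 to 8.26) in deep aorta cells. Under the limit in the aorta it was 1.74 (0.874 to 3.93), from 9 UMIs in the 29 collagen-high cells, and a ratio of 1 lay within its interval. The ETS ratios in the small aorta set moved with the rules for cells, since that of ERG ranged from 1.53 to 4.04 over the alternatives, the highest with cells thinned to 3000 UMIs, where 37.4% of 99 endothelial cells and 1 of 16 collagen-high cells carried an ERG UMI. Both ETS genes passed 2-fold there without the collagen floor.

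Among SOXF genes, SOX18 (ENSSSCG00000037865, chr17:62869868-62871758, minus strand), which takes part in lymphatic and blood vessel development, showed the sharpest contrast. In the lung it was at 91.5 CPM in endothelial and 8.28 CPM in collagen-high cells, a ratio of 11.05 (7.82 to 16.2). Over the alternatives this ratio ranged from 8.22 to 50.1, the highest against collagen-high cells without a PECAM1 UMI, where SOX18 was at 1.83 CPM. In deep aorta cells it was at 104 and 0.687 CPM, a ratio of 152 (69.7 to 414), from 3613 UMIs in endothelial and 6 UMIs in collagen-high cells. Under the limit it was at 63.7 and 4.49 CPM, from 79 and 1 UMIs, a ratio of 14.2 (2.48 to 568). Only 17 of the 6059 genes tested in the lung and 3 of 6292 in deep aorta cells had a larger ratio than SOX18.

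SOX17 (ENSSSCG00000006256, chr4:76854218-76857143, minus strand), a factor of arterial endothelium, was far less abundant than SOX18. It was at 7.26 CPM in lung, 3.23 CPM in aorta under the limit and 10.8 CPM in deep aorta endothelial cells. In collagen-high cells it had 4 UMIs in the lung (1.03 CPM) and none in either aorta set. The ratio was 7.02 (2.72 to 25.9) in the lung, and SOX17 was at least 31.4-fold higher in deep aorta endothelial cells, set against a floor of 3 counts, with 25.4 as the lower end of the counting interval. RefSeq places another gene on the same strand 158 bases beyond the annotated end of SOX17. The counts rest on Ensembl models, and whether transcripts near that end were given to another gene was not tested.

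HHEX (ENSSSCG00000036314, chr14:104194424-104199684, plus strand), a homeobox gene of endothelial and blood progenitors, was at 107 CPM in lung, 100 CPM in aorta under the limit and 104 CPM in deep aorta endothelial cells. These 3 levels lay closer together than those of any other gene over 20 CPM. In collagen-high cells HHEX was at 11.12 CPM in the lung and 2.86 CPM in deep aorta cells, and no UMI was seen in the 29 cells under the limit, where 3 counts would be 13.5 CPM and the counting interval reaches 16.6 CPM. The ratio was 9.65 (7.15 to 13.3) in the lung and 36.4 (24.7 to 56.4) in deep aorta cells, and at least 7.43 under the limit against 3 counts, with 5.95 as the lower end of its counting interval. The lung ratio of HHEX ranged from 7.46 to 36.3 over the alternatives, the highest after thinning to 3000 UMIs, so its distance from the deep aorta ratio depended on the processing. HHEX and SOX18 had the largest ratios of the genes over 20 CPM in all 3 sets.

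GATA2 (ENSSSCG00000011618, chr13:71981139-71997626, plus strand), is a zinc finger factor that also acts on endothelin expression. It was at 52.9 CPM in lung, 83.9 CPM in aorta under the limit and 83.3 CPM in deep aorta endothelial cells. In collagen-high cells it was at 26.1 CPM in the lung, 22.4 CPM (7.29 to 52.4) in the aorta under the limit and 10.8 CPM in deep aorta cells. The ratio was 2.03 (1.66 to 2.50) in the lung, just over the limit of 2 and 1.96 at the lowest under the alternatives, and 7.74 (6.30 to 9.61) in deep aorta cells. Under the limit in the aorta it was 3.74 (1.55 to 11.8). Its lowest value under the alternatives, 1.24, came from thinned cells. No GATA2 UMI was seen in the collagen-high cells there, so 1.24 is a lower bound set by the floor of 3 counts. TAL1 (ENSSSCG00000035847, chr6:164282242-164297636, plus strand), a basic helix-loop-helix factor that works with GATA factors in blood, was close to the floor. Its values are those of the feature that the matrices name TAL1, since the name table used here pairs TAL1 with another identifier. It was at 1.19 CPM in lung and 1.96 CPM in deep aorta endothelial cells, no UMI was seen in the 123 endothelial cells under the limit, and 1 UMI was seen in collagen-high cells of each of the other sets.

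The flow-responsive genes did not follow the other members. KLF2 (ENSSSCG00000038911, chr2:61270733-61273037, minus strand) was at 16.9 CPM in lung, 30.7 CPM in aorta under the limit and 34.3 CPM in deep aorta endothelial cells, and at 14.5, 22.4 and 24.96 CPM in the collagen-high cells. Its ratio of 1.16 (0.888 to 1.55) in the lung and 1.37 (0.537 to 4.45) in the aorta under the limit could not be told from 1 by counting error, and in deep aorta cells it was 1.37 (1.19 to 1.59). Under the limit the KLF2 ratio ranged from 0.409 to 2.61 over the alternatives. It passed 2-fold lower with means of single-cell CPM and 2-fold higher without the highest Scrublet scores. KLF4 (ENSSSCG00000005437, chr1:248604817-248609574, minus strand) was at 22.4, 46.0 and 41.1 CPM in endothelial cells and at 34.4, 121 and 65.2 CPM in collagen-high cells, in the order lung, aorta under the limit and deep aorta. Its ratio was 0.650 (0.543 to 0.783) in the lung, 0.379 (0.236 to 0.624) under the limit and 0.631 (0.572 to 0.697) in deep aorta cells. KLF4 was thus the only one of the 9 genes with a higher level in collagen-high cells of all 3 sets, by under 2-fold in the lung and in deep aorta cells.

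Some collagen-high cells carried PECAM1 UMIs, so the genes were also read in the collagen-high cells without one, a split chosen after the values were seen. These were 220 lung cells and 60 deep aorta cells. In the 60 deep aorta cells ERG remained at 44.2 CPM, which was 29.4% (25.01 to 34.4) of its endothelial level, and 49 of the 60 cells had an ERG UMI. Over 12 endothelial markers the median was 0.789% of the endothelial level, with CDH5 (VE-cadherin) at 0.981% and TIE1 (an endothelial receptor) at 0.597%. CLEC14A, an endothelial surface lectin, was the one marker near ERG, at 24.6% (21.4 to 28.2).

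Other members fell on both sides of ERG in these 60 cells. SOX18 was at 0.520% of its endothelial level and HHEX at 2.08%, FLI1 was at 9.40% and GATA2 at 9.75%, while KLF2 was at 60.9% and KLF4 at 163%. In the 220 lung cells ERG was at 17.2% (12.7 to 22.9), FLI1 at 7.11%, SOX18 at 1.998%, HHEX at 2.98%, GATA2 at 35.4%, KLF2 at 89.5% and KLF4 at 172%, with a marker median of 3.33% and CLEC14A at 27.1%. The markers themselves ranged from 0% to 27.1% in the lung, with CLEC14A the highest. The 0% end of this span can come from markers that were near 0 in endothelial cells too. ERG in the deep aorta and GATA2 in the lung stood above the highest marker, but their intervals overlapped that of CLEC14A, and the other members except KLF2 and KLF4 lay within the span of the markers. In the 26 aorta cells of this kind under the limit, ERG was at 65.3% (38.4 to 105), FLI1 at 35.4% and GATA2 at 17.8%. KLF2 was at 81.0% and KLF4 at 259% there, and SOX18 and HHEX had no UMI. The median over 11 markers was 0%, with CLEC14A at 46.9%. These 26 cells held only 201382 UMIs, so depth limits that 0%. The part of free RNA or of doublets in these percentages was not tested.

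**Figure D3:**
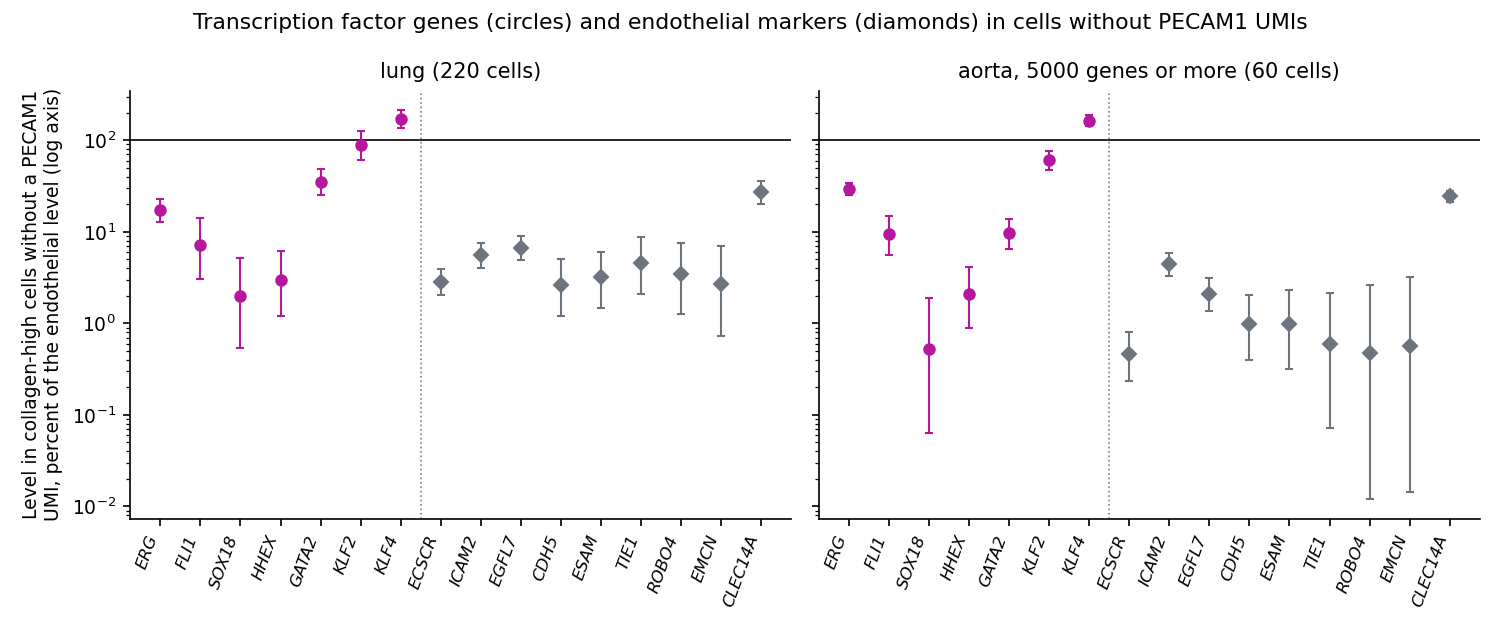
Level in collagen-high cells without a PECAM1 UMI as a percentage of the level in endothelial cells of the same set (log axis), for 7 transcription factor genes (circles) and 9 endothelial markers (diamonds), in the lung (220 cells) and deep aorta (60 cells). Bars are 95% counting intervals. ERG and CLEC14A stand at 17.2% to 29.4%, SOX18 lies at or under 1.998% and KLF4 lies above 100%.

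Between the libraries, endothelial levels were compared in the same way. Of 7 genes at 20 CPM or more, KLF4 alone was 2-fold or more higher in aorta cells under the limit than in lung cells, at 2.06-fold (1.55 to 2.68), and none was lower. The call was lost with TMM factors, another scaling of class totals, and with means of single-cell CPM, where the ratio was 1.58 at the lowest. Of all 6127 genes tested, 6.38% were higher in the aorta by that much and 3.84% were lower. In deep aorta cells KLF2 alone passed, at 2.03-fold (1.86 to 2.22), with a background of 3.05% higher and 1.29% lower. KLF4 was at 1.84-fold (1.70 to 1.99) there, and KLF2 at 1.82-fold (1.28 to 2.52) under the limit, so both KLF genes lay near 2-fold in either set.

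GATA2 was higher in the aorta by 1.59-fold (1.29 to 1.93) under the limit and 1.57-fold (1.49 to 1.66) in deep cells, and HHEX was within 10% of the lung level in both sets, with ratios of 0.932 and 0.972. SOX18 stood lower under the limit, at 0.697 (0.550 to 0.870), and higher in deep cells, at 1.14 (1.09 to 1.19). The direction for SOX18 therefore depended on which aorta cells were read. Within aorta endothelial cells, none of 7 genes differed by 2-fold between cells under the limit and deep cells, with a background of 0.858% higher and 1.09% lower. In collagen-high cells, GATA2 was lower in deep aorta than in lung cells, at 0.412 (0.308 to 0.551), the only one of 4 genes at 20 CPM to pass 2-fold, with a background of 1.72% lower and 2.25% higher. SOX18 and HHEX, under 20 CPM there, were at 0.0830 and 0.257 in the same comparison. The 12 endothelial markers in these cells summed to 118 CPM in the deep aorta and 279 CPM in the lung, and their part in the GATA2 difference was not tested.

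Within the endothelial class the genes differed in how evenly they were spread over cells. The deep aorta cells, with a median of 57099 UMIs, showed this best. ERG had a median of 8 UMIs per cell with quartiles of 6 and 12 and a highest value of 27, and was seen in 580 of 581 cells. HHEX had a median of 5, with quartiles of 3 and 8, and was seen in 95.4% of cells. SOX18 had a median of 4, with quartiles of 1 and 9 and a highest value of 47, and was seen in 84.0% of cells. SOX18 and ERG thus had levels of 104 and 150 CPM but unlike spreads, with more empty cells and a larger highest value for SOX18.

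The number of members seen per cell was counted after thinning to 3000 UMIs. Lung endothelial cells showed a mean of 1.23 of the 9 genes and 25.03% showed none, against a mean of 0.297 and 74.2% with none in lung collagen-high cells. Deep aorta cells gave similar figures, with means of 1.44 and 0.359 and with 22.0% and 69.5% showing none. Before thinning, 3.45% of lung endothelial cells and no deep aorta endothelial cell lacked all 9.

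Endothelial cells also differ in state, and the genes were read in cells with the highest summed counts for lists of S phase, G2M, immediate early, interferon and flow-partner genes. Cells were scored at 3000 UMIs each, and the top 10%, with ties, was set against the other endothelial cells. In the aorta under the limit this gave 10 to 15 top cells of 99, and few ratios could be told from 1 by counting error. Among these, SOX18 in S phase top cells rested on 2 UMIs (11.6 against 71.3 CPM, a ratio of 0.162 with an interval of 0.0193 to 0.607), and GATA2 in interferon top cells on 3 UMIs (21.6 against 92.7 CPM, a ratio of 0.233 with an interval of 0.0472 to 0.7003). The deep aorta cells, with 59 to 80 top cells of 581, were therefore read as a further set, a choice made after the values under the limit were seen. Scores also changed with the random draw of UMIs, so values in further draws are given for most ratios. Under the limit they were 0.359 and 0.101 for SOX18 in S phase top cells and 0.266 and 0.350 for GATA2 in interferon top cells.

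GATA2 stood higher in G2M top cells of the lung, at 73.3 against 49.5 CPM, a ratio of 1.48 (1.34 to 1.63) and of 1.51 and 1.56 in further draws. In the deep aorta it was at 130 against 77.0 CPM, a ratio of 1.69 (1.54 to 1.86) and of 1.39 and 1.44 in further draws. Under the limit the GATA2 ratio was 1.62 (0.752 to 3.12), but 1.59 and 1.04 in further draws. KLF2 stood higher in immediate early top cells, with a ratio of 1.55 (1.28 to 1.87) in the lung and 1.28 and 1.35 in further draws. In the deep aorta the ratio for KLF2 was 1.76 (1.52 to 2.02), with 1.45 and 1.51 in further draws. Under the limit the ratio for KLF2 was 1.76 (0.731 to 3.84), with 1.37 and 2.12 in further draws. Both genes thus kept their direction in the lung and the deep aorta in each draw, but in the deep aorta the further draws fell outside the counting interval of the first.

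SOX18 stood lower in S phase top cells of the lung, with a ratio of 0.640 (0.578 to 0.707) and of 0.678 and 0.688 in further draws. In the deep aorta its ratio was 0.784 (0.696 to 0.880), but 0.951 in another draw. In interferon top cells SOX18 was at 0.551 (0.478 to 0.631) in the deep aorta, with 0.509 and 0.543 in further draws, and at 1.05 (0.953 to 1.15) in the lung. The direction in the deep aorta turned under the stricter endothelial rule, where the ratio was 1.21. That rule left out the 486 of 581 deep aorta endothelial cells with a collagen UMI. Values under it therefore rest on few cells and are given without an interval. KLF4 in interferon top cells was at 1.68 (1.45 to 1.93) in the deep aorta, with 1.60 and 1.68 in further draws and 1.04 under the stricter rule. In the lung the KLF4 ratio was 1.099 (0.907 to 1.32). Under the limit in the aorta it was 1.06 and fell to 0.316 and 0.309 in further draws. For the flow-partner list GATA2 was at 2.92 (1.84 to 4.54) under the limit, and at 2.15 and 1.46 in further draws, but at 1.07 (0.962 to 1.19) in the deep aorta. For that list KLF2 was at 1.49 (1.28 to 1.72) in the deep aorta, with 1.51 and 1.27 in further draws. Under the limit KLF2 was at 0.395 (0.0460 to 1.54), with 0.242 and 1.57 in further draws. KLF4 was at 1.25 (1.09 to 1.44) in the deep aorta, with 1.49 and 1.37 in further draws, and at 0.968 (0.370 to 2.15) under the limit. In the lung the flow-partner cut was 1 UMI, ties put 1799 of 5122 cells in the top set, and no ratio is set beside those of the aorta. The aorta sets therefore did not give the same picture for KLF2, KLF4 or GATA2. G2M top cells were deeper than the others, with medians of 71215 against 55773 UMIs in the deep aorta, and the part of depth in these ratios was not tested. Of 5122 lung cells, 184 lay within 1 UMI of the G2M cut, 202 of the interferon cut, 477 of the S phase cut, 708 of the immediate early cut and 5060 of the flow-partner cut, so the top cells are a range of scores and not a cell type.

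**Figure D4:**
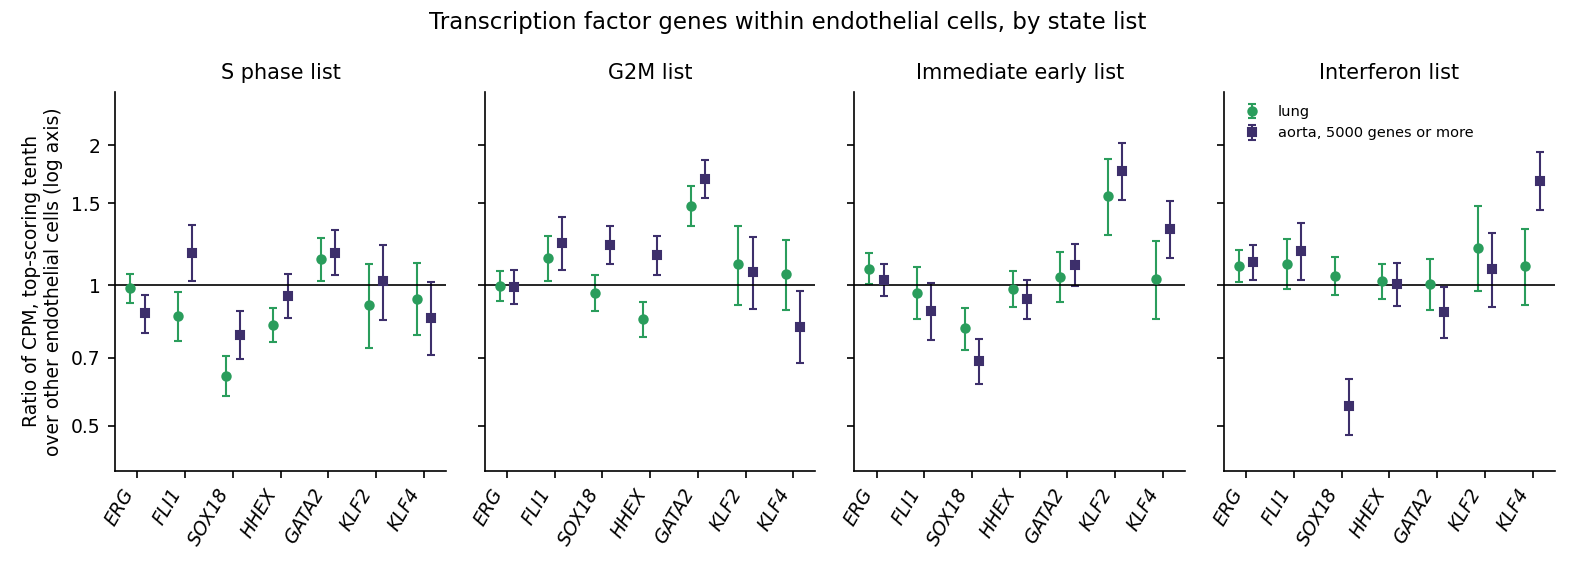
Ratio of CPM in the top-scoring 10% over the other endothelial cells (log axis) for 7 genes and 4 state lists, in the lung (green circles) and deep aorta (dark squares), from 1 draw of UMIs. Bars are 95% counting intervals and do not cover the draw. GATA2 lies above 1 in both libraries for the G2M list (1.48 and 1.69), as does KLF2 for the immediate early list (1.55 and 1.76). SOX18 lies at 0.551 in the deep aorta for the interferon list, a value that became 1.21 under the stricter endothelial rule. That rule left out the 486 of 581 deep cells with a collagen UMI, so 1.21 rests on few cells.

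A wider list held other endothelial transcription factors. In the lung 21 of 34 reached 20 CPM, of which 5 were higher by 2-fold or more and 3 were lower, with a median ratio of 1.29, beside the 9.67% and 6.62% of all genes given above. TCF4, an E protein, was the highest at 403 against 74.0 CPM (5.45-fold), followed by MECOM at 3.32-fold, the Notch target HEY1 at 2.41-fold, STAT3 at 2.11-fold and FOXO1 at 2.08-fold. TBX3 (0.0593), NR2F2, the venous factor (0.232), and HEY2 (0.485) were lower in endothelial cells. In deep aorta cells 4 of 19 were higher and none was lower, beside 12.5% and 7.64% of all genes, with TCF4 at 6.98-fold, FOXO1 at 3.12-fold and HEY1 at 2.86-fold. In aorta cells under the limit 6 of 20 were higher and 1 was lower, beside 16.2% and 13.3%.

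Relatives of the members by protein family were read in the same way, beside the same shares of all genes. None of 11 other ETS genes at 20 CPM passed 2-fold in the lung, and ETS1, as abundant as ERG at 124 CPM in endothelial cells, was higher in collagen-high cells at 202 CPM. In deep aorta cells 1 of 11 ETS genes was higher, ELK4 at 2.17-fold, and 1 was lower, ETV1 at 0.191, and under the limit 2 of 12 were higher and 2 were lower. Of the other SOX genes only SOX4 reached 20 CPM, with ratios of 0.768 in the lung, 1.34 under the limit and 1.05 in deep aorta cells. GATA3 was 2.04-fold higher in lung endothelial cells but at 0.485 under the limit and 0.737 in deep aorta cells. GATA6 was at 1.98 in the lung, 1.08 (0.548 to 2.36) under the limit and 2.96 in deep aorta cells. Of 4 other KLF genes in the lung, KLF13 (0.487) was lower, and KLF10 was at 0.655 there and at 0.480 in deep aorta cells. In deep aorta cells 2 of 4 were lower, and under the limit 2 of 5, with none higher in any set.

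Endothelial genes that are often described as targets of these factors formed another list. The shares of all genes called higher and lower were 9.67% and 6.62% in the lung, 16.2% and 13.3% in aorta cells under the limit, and 12.5% and 7.64% in deep aorta cells. In the lung 13 of 16 at 20 CPM were higher in endothelial cells and 2 were lower, with a median ratio of 6.57, in aorta cells under the limit 12 of 17 were higher and 1 was lower, and in deep aorta cells 15 of 18 were higher and 1 was lower, with a median of 20.8. Genes at 20 CPM in endothelial cells alone, ROBO4, CDH5 and TIE1 in the lung among them, had to lie higher there, so these counts are a description. The highest in the lung were ROBO4 at 11.3-fold, NOS3 (endothelial nitric oxide synthase) at 9.28-fold, ECSCR at 8.45-fold, CDH5 at 7.96-fold and TIE1 at 7.50-fold. ANGPT2, an angiopoietin, was lower in endothelial cells of all 3 sets, at 0.0562, 0.0399 and 0.0827. FLT1 was lower by 2-fold in the lung alone, at 0.452.

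Of 28 mesenchymal transcription factors, 5 reached 20 CPM in the lung, 10 in aorta cells under the limit and 6 in deep aorta cells. Genes that reached 20 CPM in collagen-high cells alone had to lie lower in endothelial cells, so the counts are a description. In the lung 4 of 5 at 20 CPM were lower in endothelial cells (PRRX2, WT1, PRRX1 and FOXS1), as were 9 of 10 in aorta cells under the limit and 5 of 6 in deep aorta cells, beside 6.62%, 13.3% and 7.64% of all genes called lower. PRRX1, a homeobox factor of mesenchyme, was at 0.807 against 47.1 CPM in the lung and 2.08 against 115 CPM in deep aorta cells. WT1 was at 32.3 CPM in lung collagen-high cells but at 1.26 CPM in those of the deep aorta. MEOX1 was the exception, at 41.2 against 4.40 CPM in the lung (9.37-fold) and 11.13-fold higher in deep aorta endothelial cells. Under the limit in the aorta it was at 25.8 CPM in endothelial cells with no UMI in collagen-high cells, at least 1.92-fold higher against 3 counts and so not counted as past 2-fold.

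Genes most like each member were ranked by Pearson's r of log2(CPM + 1) over the 8 classes with at least 20 cells. For each member 7559 or 7560 genes were compared over these 8 points, so the best of them easily reach a high r. The classes share 2 libraries, so r is a description of these classes alone. HHEX was most like BMX, which encodes a tyrosine kinase (r = 0.9996), then the unnamed gene ENSSSCG00000004572 and ICA1. SOX18 was most like SERTAD4 (0.976), BMP6 (0.974), which encodes a bone morphogenetic protein, and MTCH1 (0.973). GATA2 was most like NGLY1 (0.986), EDN1 (0.979), the endothelin-1 gene, and BCAM (0.969). ERG and FLI1 had CBX6, a Polycomb-related gene, among the 3 most like genes of each, at 0.969 and 0.949, beside CDV3 and TBC1D30 for ERG and COTL1 and TIMP3 for FLI1. KLF2 was most like RAB21 (0.960), HOXD8 (0.955) and the cytokine gene IL6 (0.936), and KLF4 like SLC17A9 (0.974), NEDD1 and ZFR. SOX17 and TAL1 were near the floor, and their closest genes were ADI1, TBC1D15 and FAM32A for SOX17 and VPS35, BDH2 and MMAB for TAL1.

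Cells of neither class held some member transcripts in the aorta. The 94 such cells under the limit had a median mitochondrial share of 0.112%. In 60 of them, ACTA2 and TAGLN, genes of the contractile cytoskeleton, together reached 1000 CPM or more within the cell. ACTA2 UMIs were seen in 51 of these 60 cells. The split was chosen after the values were seen. In these 60 cells ERG was at 28.4 CPM, from 8 UMIs, and SOX18 and FLI1 had 1 UMI each. In the other 34 cells ERG was at 136 CPM, HHEX at 148 CPM and SOX18 at 111 CPM, from 11, 12 and 9 UMIs. Of the 123 endothelial cells under the limit, 27 had under 1% mitochondrial UMIs, and these 27 held 1 ERG UMI (11.2 CPM) where the other 96 held 178 (155 CPM). SOX18 was at 67.4 CPM in the 27 cells and 63.4 CPM in the 96, HHEX at 78.6 and 102 CPM and GATA2 at 89.9 and 83.4 CPM, from 6, 7 and 8 UMIs in the 27 cells. FLI1 was at 33.7 and 73.0 CPM, KLF2 at 11.2 and 32.2 CPM and KLF4 at 11.2 and 48.7 CPM, from 3 UMIs or fewer in the 27 cells. Markers of other cells moved with this split, with ACTA2 at 651 CPM in the 27 cells and 1.74 CPM in the 96 and TAGLN at 1101 and 177 CPM. ACTA2 UMIs were seen in 6 of the 27 cells and TAGLN UMIs in 17 of them. Endothelial markers were lower in the 27 cells, with PECAM1 at 416 against 1229 CPM, CDH5 at 33.7 against 247 CPM and TIE1 without a UMI against 109 CPM, and the part of other cell types in these levels was not tested.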

How the data were processed

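The deposited values were raw UMI counts per gene and cell, made by the authors with Cell Ranger 3.0.2 (submitters' processing notes) on Sscrofa11.1 from v3 3′ libraries, with neither normalization nor the limits on cells applied. The 22804 genes included 7821 given by identifier only, of which 1051 were matched to a symbol. Counts were summed over a class and scaled to CPM. Poisson intervals, Clopper-Pearson intervals for shares and binomial intervals for ratios (95%) were exact. With 1 library per group no test or p-value is given, and cells were not replicates. A gene entered a comparison at 20 CPM in at least 1 class, 2-fold counted as a difference, and a count of 0 was set to 3. The floor of 1000 CPM for collagen-high cells was set here. Leukocyte cells (17 in the lung) and 42 lung cells of neither class were left out of the comparisons, and no doublets were removed. Scrublet called only 3 of 246 aorta and 4 of 5683 lung cells (0.0704%), and whether it missed doublets was not tested.

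All 9 members are named, and from each further list up to 5 genes each way by lung ratio, with the 3 genes most like each member. ELK4 and CD14 were named after their values were seen. The members and lists were chosen with earlier results of these data known. The deep aorta cells as a set of their own for states, the 2 further draws and the splits by PECAM1 and by ACTA2 and TAGLN were chosen after values were seen. Alternatives covered cell limits, class rules, doublet scores, thinning, weighting, scaling and thresholds. Ratios were tested on simulated data. Promoters and places are from the RefSeq annotation of Sscrofa11.1, matched by symbol for all 10 genes, while the counts rest on Ensembl models. Python 3.11.15, numpy 2.4.6, scipy 1.17.1, pandas 2.3.3, scanpy 1.11.5, R 4.3.3 and edgeR 4.0.16 (TMM factors only) were used.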

Additional observations from a re-analysis of the deposited data

How the results depend on the processing

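No paired analysis was possible because each organ had 1 library. The results below rest on 1 library per organ, and precision was set by depth, with 29 collagen-high aorta cells under the limit. In the lung, 5 genes were 2-fold or more higher in endothelial cells, which became 4, without GATA2, with no upper limit on genes and under the stricter endothelial rule, and 3 at 4-fold. In the aorta, 3 genes were higher, SOX18, HHEX and GATA2, which became 5 without the upper limit on genes, with deep cells alone and without the collagen floor, by adding ERG and FLI1, 5 without the highest Scrublet scores, by adding FLI1 and KLF2, and 1, ERG alone, with cells thinned to 3000 UMIs, where SOX18, HHEX and GATA2 had no UMI in collagen-high cells and were set against the floor of 3 counts. The lower call for KLF4 in the aorta was lost without the collagen floor, without the upper limit, with deep cells alone and at 4-fold, with a ratio of 0.631 at the highest. With means of single-cell CPM KLF2 was lower as well. Between libraries KLF4 differed, in place of which KLF2 did with no upper limit and with deep cells. The count became 2 under the stricter endothelial rule (GATA2 and KLF4), without the highest Scrublet scores (KLF2 and KLF4), with thinning (KLF4 and SOX18), at 5 CPM and with no filter (KLF4 and SOX17), and 0 with means of single-cell CPM, with TMM factors or at 4-fold. TMM moved the median log2 ratio of all genes by 0.103 in the aorta. The median ratio of 5.16 in the lung became 9.93 without collagen-high cells carrying PECAM1, and that of 1.74 in the aorta became 5.96 with no upper limit and 6.46 with deep cells. Of all recomputed counts and medians, 17 moved and 61 stayed within the limits set for a change, those of 4 genes in the lung among them. Ratios of states in aorta cells under the limit were unstable, and 17 values recomputed for ratios past 2-fold lay on the other side of 1. With no upper limit and with deep cells alone they became, for KLF2, 1.45 and 1.49 (flow partners) and 1.05 and 1.08 (interferon), for SOX18, 1.24 and 1.22 (G2M), and for SOX17, 1.18 and 1.19 (flow partners), 1.01 and 1.05 (G2M), 1.31 and 1.36 (immediate early) and 1.03 and 1.04 (interferon). KLF2 in S phase became 1.02 with deep cells, SOX17 in S phase became 0 after thinning, and KLF2 for flow partners became 1.57 in another draw. Many of these ratios started at 0, with no UMI in the top cells. They were those of KLF2 for interferon and S phase and of SOX17 for all lists but S phase, and the SOX17 intervals included 1. The cause of these changes was not tested.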
